A study of Mus musculus with 16 samples.

Results

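Splicing factor and hnRNP genes were followed on mouse expression arrays in 2 limb muscles of a transgenic model of amyotrophic lateral sclerosis (ALS). The set was formed by name: every probe set whose single gene symbol on the platform annotation starts with Hnrnp, Srsf, Snrp, Sf3 or Prpf, with Hnrnpa1 left out. It holds 93 of the 7729 probe sets in the table and 42 of the 4929 genes that have a probe set with a single symbol. The mice were female C57BL/6 animals aged 7 weeks, a stage the series calls presymptomatic. Of these, 4 carried human SOD1 with the G93A substitution (written SOD1-G93A here), and 4 were non-transgenic (NTg). The sources used here do not give the promoter, copy number or line of the transgene. Gastrocnemius, in the calf, and triceps, in the upper forelimb, were taken from each mouse, which gave 4 groups of 4 arrays: SOD1-G93A gastrocnemius, NTg gastrocnemius, SOD1-G93A triceps and NTg triceps.

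Introns are removed from pre-mRNA by the spliceosome, a machine of small nuclear ribonucleoproteins (snRNPs) that assembles anew on every intron. Sm proteins form the ring on the small nuclear RNAs, the SF3 complexes belong to the U2 snRNP that holds the branch site, and PRPF factors act in the tri-snRNP and in the activation of the spliceosome. SR proteins bind exonic enhancers and as a rule favour the use of an exon, while hnRNPs coat the nascent transcript and often repress splice sites, besides serving in RNA export, stability and translation. Muscle relies heavily on alternative splicing for its contractile and calcium-handling proteins, and several hnRNPs have been linked to inherited disease of motor neurons and muscle. SR and hnRNP transcripts are commonly under feedback control through splicing of their own pre-mRNA.

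By role, 38 probe sets of 15 genes belonged to hnRNPs, 21 of 8 genes to SR proteins, 12 of 7 genes to Sm and other snRNP proteins, 11 of 7 genes to SF3 complexes and 11 of 5 genes to PRPF factors. A probe set was tested where its mean over the 16 arrays exceeded the 40th percentile of the table (log2 6.75), which 61 probe sets of 35 genes did. These were 28 hnRNP, 10 SR, 8 Sm and snRNP, 10 SF3 and 5 PRPF probe sets. The other 32 were too dim, and 7 genes had no tested probe set: Hnrnph3, Hnrnpr, Prpf39, Prpf4b, Sf3a3, Snrpa1 and Srsf10. Just above the limit were Srsf4 at 6.82, Sf3b2 (1433461_at) at 6.82 and Hnrnpa2b1 (1433830_at) at 6.87, and just below it were Srsf2 (1452439_s_at) at 6.67, Snrpb2 (1452422_a_at) at 6.64 and Hnrnpul2 (1415765_at) at 6.57. The brightest tested probe sets read Hnrnpdl at a mean of 9.74 on the log2 scale, Hnrnpa2b1 (1420365_a_at) at 9.71 and Prpf19 (1419839_x_at) at 9.58. Signals of different probe sets depend on their probes, so this order is not one of transcript amounts. The dimmest was a probe set of Srsf10 (1418527_a_at), with a mean of 4.60 and values from 0.62 to 6.08.

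Of the 42 genes, 28 had over 1 probe set and 14 had over 1 that was tested. In Affymetrix naming, _a_at marks a probe set shared by transcripts of a gene, while _s_at and _x_at mark probe sets that may also read other transcripts. Replicates of a group are separate mice. In these bulk samples, fewer cells of a type and less RNA per cell cannot be told apart. All values below are log2 signals, and every difference is, on that scale, that of SOD1-G93A from NTg or that of gastrocnemius from triceps, negative where the first is lower.

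Array medians lay between 7.10 and 7.26. All 14 probe sets of 12 skeletal muscle markers were tested, and their mean per array was 12.5 or more in every group, as the muscle label requires. On NTg triceps 1, NTg triceps 2 and SOD1-G93A triceps 2, the transcript of muscle creatine kinase (Ckm) was at 12.84, 13.02 and 12.76, below the 13.84 to 14.51 of the other 5 triceps arrays. The splicing probe sets stood apart on these arrays too. Of the 61 tested, 35 had their highest value of all 16 arrays on 1 of these 3, which is 57.4% against 35.6% of all tested probe sets, and 19 had their lowest there (31.1% against 36.3%). NTg triceps 2 alone held 24 highest and 12 lowest values (39.3% and 19.7%, against 20.1% and 22.3% of all). Results that rest on them are also given without them, or within mice 1 and 2 and within mice 3 and 4, since each of those arrays is of a mouse numbered 1 or 2.

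**Figure D1:**
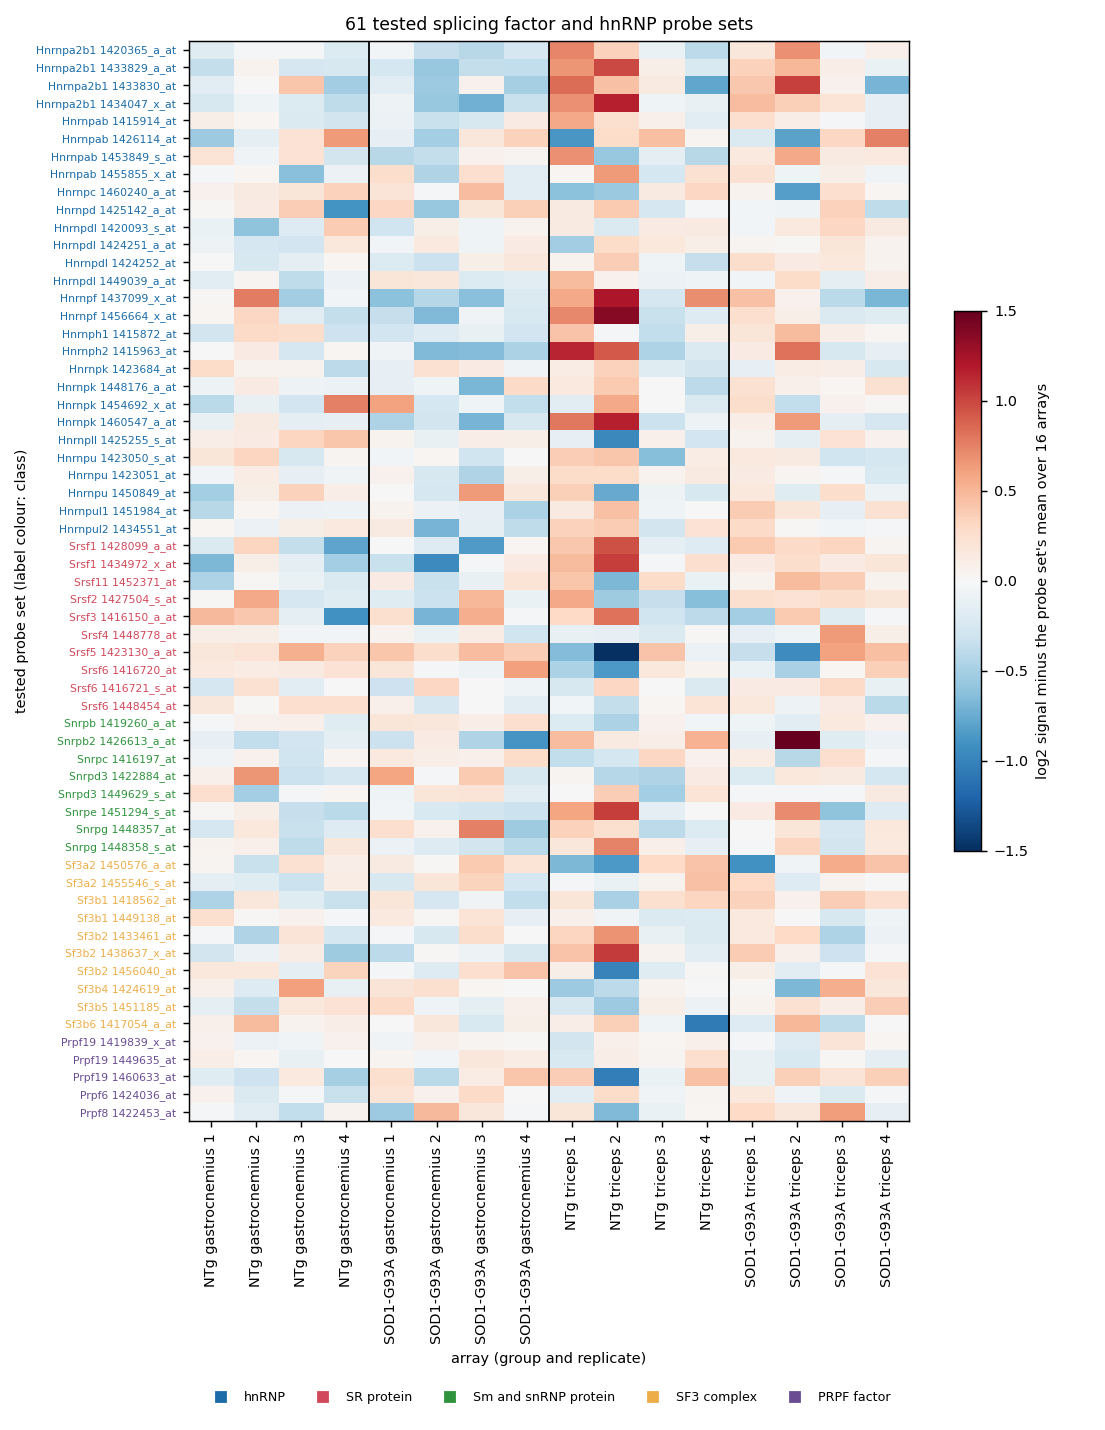
Log2 signal of each of the 61 tested probe sets (rows, label coloured by role) on each of the 16 arrays (columns, grouped by muscle and genotype), minus the probe set's mean over all arrays; red is above and blue below that mean, and the colour scale ends at 1.5 either way. The column of NTg triceps 2 carries the most extreme cells, 24 highest and 12 lowest values of the 61 rows.

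The clearest difference lay between the muscles. Hnrnpa2b1 encodes hnRNP A2/B1, which binds pre-mRNA, sorts RNAs for transport and is altered in an inherited disease of muscle, bone and brain. It was lower in gastrocnemius than in triceps by both probe sets that passed the main test, which treats the 16 arrays as independent although both muscles came from the same mice. Across all 4637 tested probe sets 171 were called (3.69%), 98 of them higher in gastrocnemius (2.11%) and 73 lower (1.57%), so the 2 called among 61 (3.28%), both lower, are a share near the background. With the mouse as a block, which takes the pairing of the muscles into account, 5 of the 61 were called (8.2%, against 6.86% of all, which is 318 probe sets), all lower in gastrocnemius (3.23% of all were): both Hnrnpa2b1 probe sets (limma adjusted p = 0.0225 for 1433829_a_at and 0.0172 for 1434047_x_at), Snrpb2 (0.0337) and both tested Srsf1 probe sets (0.038 and 0.0419). Differences, standard errors and adjusted p below are from the main test unless the block is named.

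On Hnrnpa2b1 probe set 1433829_a_at, the gastrocnemius of NTg mice 1 to 4 read 8.10, 8.52, 8.22 and 8.23, and that of SOD1-G93A mice 1 to 4 read 8.20, 7.90, 8.11 and 8.09. Their triceps read 9.12, 9.45, 8.55 and 8.23 in NTg and 8.80, 8.96, 8.56 and 8.36 in SOD1-G93A. Triceps was above gastrocnemius in 8 of 8 mice, although in NTg mouse 4 the muscles differed by only -0.000263, and the values of the 2 muscles overlap between mice. The difference was -0.58 (SE 0.15, 95% interval -0.90 to -0.27, 1.5-fold lower, limma adjusted p = 0.0397), and an exact two-sided sign-flip permutation test over the 8 mice gave p = 0.00781, the smallest it can give.

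Probe set 1434047_x_at of Hnrnpa2b1 read 8.10, 8.27, 8.13 and 7.96 in the gastrocnemius of NTg mice 1 to 4, and the SOD1-G93A mice had 8.26, 7.77, 7.61 and 8.0 there. In triceps it read 9.03, 9.50, 8.27 and 8.22 in NTg and 8.80, 8.69, 8.54 and 8.22 in SOD1-G93A. Again triceps was the higher muscle in every mouse, most of all in NTg mouse 2 (a difference of -1.23) and least in NTg mouse 3 (-0.15). The difference was -0.65 (SE 0.17, 95% interval -1.0 to -0.29, 1.57-fold lower, limma adjusted p = 0.0407). The remaining Hnrnpa2b1 probe sets did not pass. The brightest, 1420365_a_at, differed by -0.37 (SE 0.14, adjusted p = 0.142) with triceps higher in 6 of 8 mice. On 1433830_at, close to the limit for testing, the difference was -0.36. There it was -1.01, -0.45, 0.28 and 0.26 in NTg mice 1 to 4 and -0.58, -1.57, 0.0042 and 0.19 in SOD1-G93A mice 1 to 4. So the mean differences of all 4 probe sets lay on the same side, but on 1433830_at only mice 1 and 2 of each genotype had triceps higher. The 4 probe sets share a transcript, so they are not independent readings.

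The calls of the main test rested on few arrays. Within mice 1 and 2 of both genotypes the differences were -0.91 on 1433829_a_at and -0.91 on 1434047_x_at, and within mice 3 and 4 they were -0.26 and -0.39. Without the 3 triceps arrays of low Ckm they were -0.31 (adjusted p = 0.203) and -0.37 (adjusted p = 0.179), and 0 splicing probe sets were called, beside 108 of all probe sets. Leaving out single arrays moved the differences between -0.69 and -0.48 and between -0.74 and -0.52. Neither probe set was then called without any of SOD1-G93A gastrocnemius 2, 3 or 4, NTg gastrocnemius 1, 3 or 4, SOD1-G93A triceps 1, 2 or 3, or NTg triceps 1, where the adjusted p reached 0.0887 and 0.0875, and 1 of the pair was lost without SOD1-G93A gastrocnemius 1, NTg gastrocnemius 2 or NTg triceps 2. Without NTg triceps 3, 4 splicing probe sets were called, beside 273 of all probe sets. Srsf1 (1434972_x_at, adjusted p = 0.0355) and Hnrnpk (1460547_a_at, 0.0452) were added. Without NTg triceps 4 there were 3 splicing probe sets, with Hnrnpa2b1 1420365_a_at (0.0467) added. With single arrays left out, 95 to 273 of all probe sets were called. Over all alternatives run the adjusted p ranged from 0.00674 to 0.203 for 1433829_a_at and from 0.0069 to 0.179 for 1434047_x_at.

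The promoter of Hnrnpa2b1 is shown because the gene held the calls of the main test. RefSeq places it beside Cbx3, which encodes a heterochromatin protein, with 105 bases between the annotated genes. Cbx3 has 0 probe sets in the table. The stretch is chr6:51470049-51470144 of GRCm38.p6, read on the minus strand, the 96 bases of the promoter window that lie outside the annotated gene. It has 14 CpG dinucleotides and these bases hold no match to the motifs searched below, so no letters are in capitals. The whole 250 bases before the start, most of which lie within the annotated gene and are not printed, hold 29 CpG and a match to CCAAT.
Hnrnpa2b1: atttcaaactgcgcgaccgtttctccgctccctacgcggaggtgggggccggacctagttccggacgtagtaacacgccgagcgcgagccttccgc

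**Figure D2:**
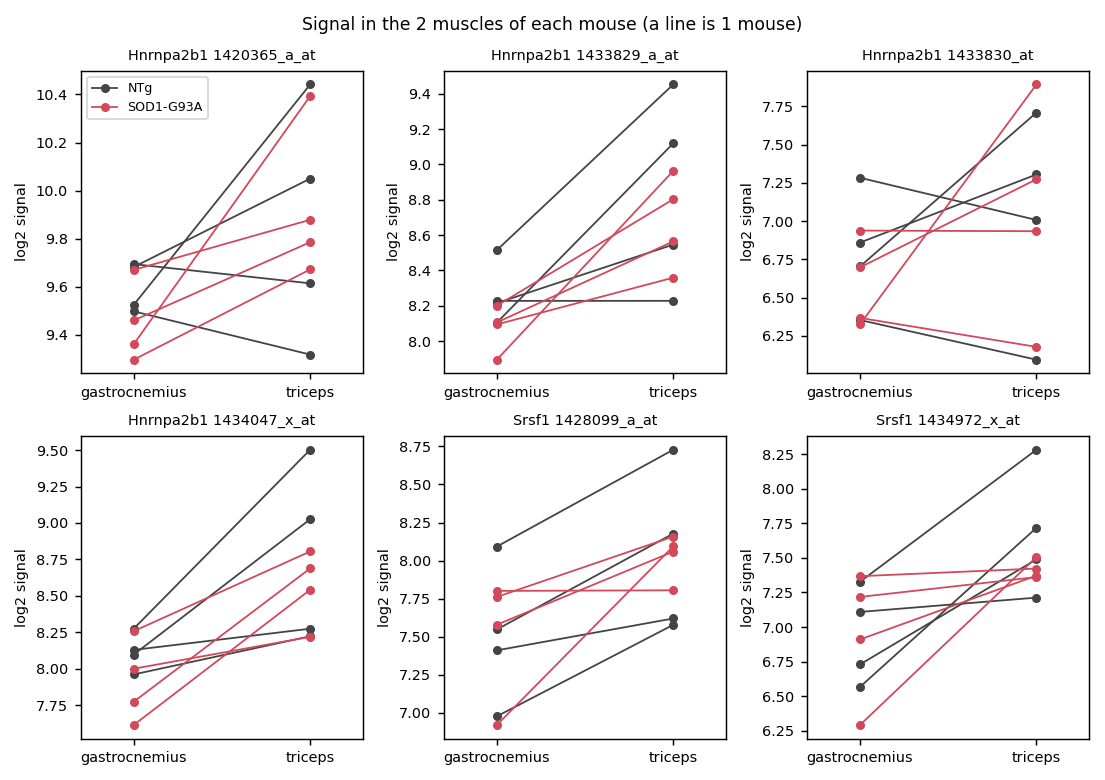
Log2 signal in gastrocnemius and triceps of each of the 8 mice (a line is 1 mouse; grey NTg, red SOD1-G93A) for the 4 tested Hnrnpa2b1 probe sets and both tested Srsf1 probe sets; each panel has its own vertical scale. Every line rises toward triceps or is level on Hnrnpa2b1 1433829_a_at and 1434047_x_at and on both Srsf1 probe sets, whereas on 1420365_a_at 6 of 8 lines rise. On 1433830_at only the lines of mice 1 and 2 of each genotype rise.

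By role, the hnRNPs had the lowest median. The median difference of the 28 tested hnRNP probe sets was -0.18, with 22 below 0, against -0.11 and 39 of 61 (63.9%) over all splicing probe sets and -0.0042 and 51% over all 4637. The medians of the other classes were -0.03 for SR proteins, -0.02 for Sm and snRNP proteins, 0.07 for SF3 complexes and 0.01 for PRPF factors. These medians were not tested against each other. They include the 3 triceps arrays of low Ckm, on which 35 of the 61 splicing probe sets were highest. Over the alternatives run, the median of the splicing probe sets ranged from -0.14 to -0.03, and medians by role were not taken. Hnrnpk, a poly(C)-binding protein active in transcription and translation, differed by -0.48 on 1460547_a_at (adjusted p = 0.15, lower in 6 of 8 mice), but this was -0.85 within mice 1 and 2 and -0.10 within mice 3 and 4. On its other tested probe sets, differences by mouse ran from -0.29 to 0.23 (1423684_at), -0.71 to 0.30 (1448176_a_at) and -0.67 to 0.98 (1454692_x_at). Hnrnpul1, an hnRNP U-like protein, was lower in gastrocnemius in 8 of 8 mice by -0.29 on average (adjusted p = 0.153), with differences from -0.70 to -0.01. On the other side were Hnrnpll, a regulator of splicing in lymphocytes, at 0.27 (adjusted p = 0.254) and Hnrnpc, which binds uridine tracts, at 0.31 (adjusted p = 0.271, higher in 7 of 8 mice). The Hnrnpc difference was -0.01 without the 3 arrays of low Ckm.

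Among SR proteins, Srsf1, the founding member of the family, was lower in gastrocnemius in 8 of 8 mice on both of its tested probe sets, which were called with the mouse as a block (adjusted p = 0.0419 for 1434972_x_at and 0.038 for 1428099_a_at) but not in the main test. In the gastrocnemius, probe set 1434972_x_at read 6.57, 7.33, 7.11 and 6.73 for NTg mice and 6.91, 6.29, 7.22 and 7.37 for SOD1-G93A mice. In the triceps it read 7.72, 8.28, 7.21 and 7.49 for NTg and 7.37, 7.51, 7.36 and 7.42 for SOD1-G93A, so the muscles overlap between mice although not within any. The difference was -0.61 (SE 0.18, 1.52-fold lower, adjusted p = 0.0683), and on 1428099_a_at it was -0.52 (SE 0.19, adjusted p = 0.135). The exact permutation p was 0.00781 for each, the smallest 8 mice can give. Within mice 1 and 2 the differences were -0.94 and -0.54, within mice 3 and 4 they were -0.27 and -0.50, and without the arrays of low Ckm they were -0.43 and -0.30 (adjusted p = 0.312 and 0.512; lowest over the alternatives 0.0355 and 0.038). Of the Srsf1 probe sets too dim to be tested, 1428100_at was lower in gastrocnemius in every mouse (differences from -1.56 to -0.01), whereas 1452430_s_at was higher in 6 of 8 mice, with differences from -0.59 to 2.42.

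Srsf5, an SR protein that binds exonic enhancers, showed the widest spread within groups of all tested splicing probe sets (SD 0.69). Its gastrocnemius values were 9.53, 9.56, 9.88 and 9.70 in NTg and 9.78, 9.62, 9.82 and 9.72 in SOD1-G93A. In triceps it read 8.71, 7.13, 9.78 and 9.27 in NTg and 9.01, 8.41, 9.96 and 9.81 in SOD1-G93A. Gastrocnemius was thus narrow in both genotypes, and the lowest triceps values were those of NTg 2, SOD1-G93A 2 and NTg 1, the arrays of low Ckm. The difference of 0.69 (SE 0.29, adjusted p = 0.176, higher in 6 of 8 mice) was 1.31 within mice 1 and 2, 0.07 within mice 3 and 4 and 0.14 without those 3 arrays. Srsf6, a further SR protein, differed by 0.33 on 1416720_at (adjusted p = 0.236) and by 0.06 without them.

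The Srsf5 promoter is printed because the gene had the highest muscle difference of the tested splicing probe sets. The stretch is chr12:80945249-80945494 of GRCm38.p6 on the plus strand, 246 bases with 16 CpG dinucleotides. Capitals mark 3 matches to GGGCGG and 2 to CCGGAAG, on either strand, and one match of each overlaps by a base.
Srsf5: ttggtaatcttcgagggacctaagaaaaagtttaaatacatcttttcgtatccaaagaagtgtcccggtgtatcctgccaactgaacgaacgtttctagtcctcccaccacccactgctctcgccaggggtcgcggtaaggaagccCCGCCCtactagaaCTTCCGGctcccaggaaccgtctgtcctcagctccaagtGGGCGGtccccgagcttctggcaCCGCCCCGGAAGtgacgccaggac

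Promoter sequences (GRCm38.p6) were at hand for 37 of the 42 genes, although all 42 were matched to RefSeq genes. Their 250 bases before the start held a median of 19 CpG (4 to 39) against 6 over all 27025 promoters and 10 over the 17491 of protein-coding genes, and a median GC content of 60.4% against 52.0% and 55.2%. Motifs were searched on both strands. GGGCGG, read by SP and KLF factors, was in 25 (67.6%, against 33.0% of all promoters and 42.7% of coding ones), and CCGGAAG, an ETS core, was in 14 (37.8%, against 7.07% and 9.14%). CCAAT was in 16 (43.2%, against 34.5% and 36.5%), TATAAA in 2 (5.41%, against 13.0% and 12.4%), TGACGTCA in 1 (2.7%, against 1.6% and 1.98%) and the palindromic NRF1 site in 0 (against 0.777% and 1.06%). GGGCGG and CCGGAAG can overlap by a base on opposite strands, as in Srsf5. These are descriptions of letters, with no test.

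In the core of the spliceosome, the difference furthest from 0 was that of Snrpb2, which encodes the U2 snRNP protein B''. In the gastrocnemius it read 7.06, 6.81, 6.89 and 7.04 for NTg mice and 6.85, 7.30, 6.72 and 6.30 for SOD1-G93A mice. In the triceps it read 7.64, 7.31, 7.28 and 7.70 for NTg and 7.05, 8.82, 7.00 and 7.09 for SOD1-G93A. In NTg mice the muscles did not overlap, and in SOD1-G93A mice 1 triceps array, number 2, lay far above the other 3. The difference was -0.61 (SE 0.23, adjusted p = 0.136, and 0.0337 with the mouse as a block), lower in 8 of 8 mice, -0.70 within mice 1 and 2, -0.53 within mice 3 and 4, and -0.40 without the arrays of low Ckm (adjusted p = 0.28). A dimmer Snrpb2 probe set, 1452422_a_at, not tested, had differences from -1.05 to 0.76 among the mice. Snrpb, a Sm ring protein, differed by 0.16 (adjusted p = 0.261). Sf3b1, the largest subunit of the branch-site complex, differed by -0.32 on 1418562_at (adjusted p = 0.171, lower in 7 of 8 mice). Without the arrays of low Ckm this was -0.47 (adjusted p = 0.0665, and 0.0563 to 0.28 over its alternatives). The other tested Sf3b1 probe set, 1449138_at, lay the other way, with differences by mouse from -0.07 to 0.45. Its means were 8.61 and 8.63 in SOD1-G93A and NTg gastrocnemius, and 8.52 and 8.46 in SOD1-G93A and NTg triceps. Prpf19, a ubiquitin ligase needed for activation of the spliceosome, differed by 0.08 on 1449635_at (adjusted p = 0.595) and had the narrowest spread within groups (SD 0.13, on its steadiest probe set).

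At an unadjusted p under 0.05, 12 of the 61 differed between the muscles (19.7%, against 22.3% of all). Of these 11 were lower in gastrocnemius (18%, against 11%) and 1, Srsf5, was higher (1.64%, against 11.4%). The same sign in 8 of 8 mice was found for 6 (9.84%, against 10.3%), all lower in gastrocnemius (4.4% of all were): both called Hnrnpa2b1 probe sets, both tested Srsf1 probe sets, Snrpb2 and Hnrnpul1. Among the 14 genes with several tested probe sets, all probe sets of a gene had the same sign in 5.

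**Figure D3:**
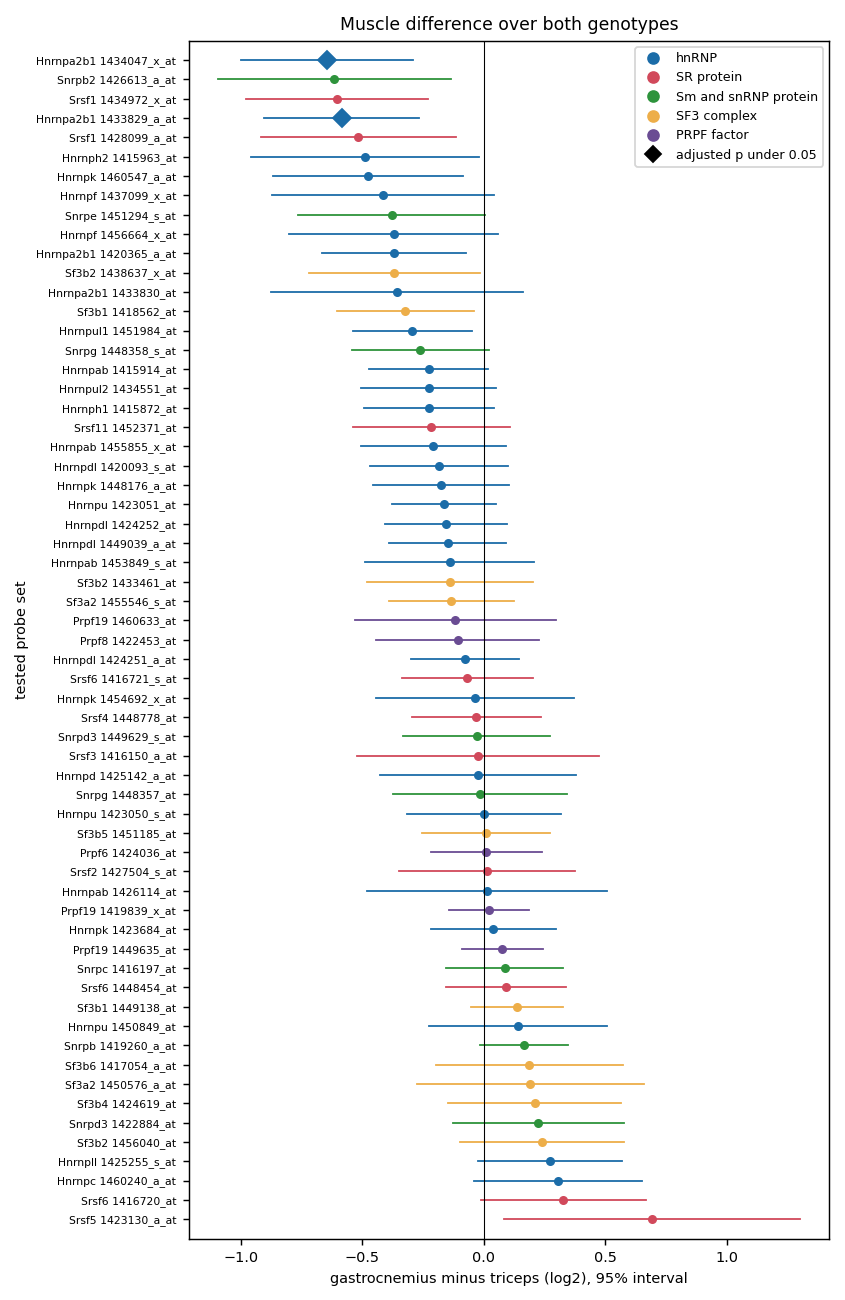
Gastrocnemius minus triceps over both genotypes, with its 95% interval from the limma fit, for the 61 tested probe sets in order of size (colour: role; diamonds: adjusted p under 0.05 in the main test, without the mouse as a block). The diamonds are the 2 Hnrnpa2b1 probe sets at -0.65 and -0.58, 39 of 61 points lie left of 0, and Srsf5 lies farthest right at 0.69.

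Markers of other tissue components moved with the muscle too. Schwann cell markers were called higher in gastrocnemius on 4 of 4 tested probe sets (2 of 9 listed genes are in the table), with a median difference of 2.01 and array means of 7.45 to 9.12 in gastrocnemius and 6.38 to 6.93 in triceps. Connective tissue markers were above 0 on 11 of 12 (3 called, median 0.61, array means 9.71 to 10.53 in gastrocnemius and 8.65 to 9.94 in triceps), and skeletal muscle markers on 14 of 14 (1 called, median 0.50, array means 13.50 to 14.07 and 12.52 to 13.89). Adipocyte markers had a median of 0.10 over 7, immune markers 0.18 over 4 and endothelium 0.16 on 1. The satellite cell list had 1 gene in the table, too dim to be tested, and the erythroid list had 0. The 3 triceps arrays of low Ckm enter all these values. Ckm read 13.97 to 14.71 in gastrocnemius, 12.76 to 13.02 on those 3 arrays and 13.84 to 14.51 on the other triceps arrays. The marker lists were not compared without those arrays. The part of the markers in the splicing differences was not tested.

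Between the genotypes, no splicing probe set was called in gastrocnemius, in triceps, over both muscles or where the genotype effect of gastrocnemius was set against that of triceps, and neither was any other of the 4637 (0% in each comparison). The smallest adjusted p among the splicing probe sets was 0.999, 0.994, 0.997 and 0.999. The median 95% interval of a splicing probe set reached 0.46 either side of its difference within a muscle (1.37-fold) and 0.36 over both muscles (1.29-fold), so differences of up to that size lie within the error of 4 mice a group. Median differences of the 61 were 0.01 in gastrocnemius, 0.04 in triceps and 0.02 over both muscles, beside -0.01, 0.02 and 0.00 for all probe sets. At an unadjusted p under 0.05 there were 0 in gastrocnemius (2.22% of all), 2 in triceps (3.28%, against 2.54%), 1 over both muscles (1.64%, against 1.83%) and 0 for the difference of effects (1.85% of all). Of the marker lists, adipocyte markers were above 0 on 7 of 7 probe sets in both muscles (medians 0.32 and 0.43) and skeletal muscle markers on 14 of 14 (0.18 and 0.20). Connective tissue markers were above 0 on 4 of 12 in gastrocnemius (median -0.07) and 12 of 12 in triceps (0.33), immune markers on 2 of 4 (0.01) and 4 of 4 (0.24), and Schwann cell markers on 0 of 4 (-0.31) and 3 of 4 (0.32). The 1 endothelial probe set was at -0.12 and 0.09. None of these was called, and their part was not tested. The arrays of low Ckm, NTg 1, NTg 2 and SOD1-G93A 2, enter the triceps values and fall unevenly on the genotypes. In triceps, array means of connective tissue markers were 8.65 to 9.83 in NTg and 9.38 to 9.94 in SOD1-G93A. Those of skeletal muscle markers were 12.62 to 13.76 and 12.52 to 13.89. The lists were not compared without those arrays.

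Hnrnpf, which binds G tracts beside splice sites, had the largest genotype differences. On 1437099_x_at, NTg gastrocnemius read 7.67, 8.42, 7.13 and 7.61 and SOD1-G93A gastrocnemius 7.03, 7.23, 7.02 and 7.44. NTg triceps read 8.22, 8.87, 7.40 and 8.35 and SOD1-G93A triceps 8.09, 7.72, 7.25 and 6.97. The groups overlapped in both muscles, with NTg 3 among the SOD1-G93A values each time. The differences were -0.53 in gastrocnemius, -0.70 in triceps (unadjusted p = 0.0341) and -0.62 over both (SE 0.23, 95% interval -1.1 to -0.13, unadjusted p = 0.0151, limma adjusted p = 0.997), the last with an exact permutation p of 0.0857 over mice. Over both muscles it was -0.78 within mice 1 and 2 and -0.45 within mice 3 and 4. The second tested probe set, 1456664_x_at, differed by -0.28, -0.41 and -0.34, but by 0.21 in triceps without the 3 arrays of low Ckm, and over both muscles by -0.78 within mice 1 and 2 and 0.09 within mice 3 and 4. Both are of the kind that may read other transcripts, and the other 2 Hnrnpf probe sets were too dim to be tested (means 6.56 and 6.31).

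In gastrocnemius, 3 of the 61 had groups that did not overlap (4.92%, against 2.7% of all). Snrpb and Snrpc were higher in SOD1-G93A (1.38% of all were) and Hnrnpk (1460547_a_at) was lower (1.32% of all were), each with an exact permutation p of 0.0286, the smallest that 4 against 4 can give. Snrpb read 9.29, 9.37, 9.38 and 9.13 in NTg and 9.49, 9.47, 9.41 and 9.56 in SOD1-G93A, a difference of 0.19 (SE 0.12). Snrpc, a protein of the U1 snRNP that recognises the 5′ splice site, read 8.92, 9.04, 8.67 and 9.02 in NTg and 9.12, 9.07, 9.05 and 9.25 in SOD1-G93A, a difference of 0.21 (SE 0.16). In both the gap between the groups was narrow: the lowest SOD1-G93A value stood next to the highest NTg value. Hnrnpk read 8.95, 9.19, 8.92 and 8.94 in NTg and 8.60, 8.79, 8.36 and 8.82 in SOD1-G93A, a difference of -0.36 (SE 0.26). On its other tested probe sets, 1423684_at, 1448176_a_at and 1454692_x_at, gastrocnemius means were 8.04, 8.17 and 6.90 in NTg. In SOD1-G93A they were 8.09, 8.06 and 6.89. In triceps the differences of Snrpb, Snrpc and Hnrnpk 1460547_a_at were 0.16, 0.05 and -0.31, with overlapping groups. Within mice 1 and 2, which hold the arrays of low Ckm, the triceps differences were 0.23, 0.17 and -0.61. Within mice 3 and 4 they were 0.09, -0.07 and -0.0026.

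Other members named by small p in gastrocnemius were Prpf6, a tri-snRNP scaffold, at 0.26, Hnrnpul2 at -0.32, Srsf6 (1448454_at) at -0.25 and Sf3a2, a subunit of the U2 snRNP, at 0.13 (adjusted p = 0.999 each). By role, 20 of 28 hnRNP probe sets were below 0 in gastrocnemius (71.4%, against 52.9% of all, median -0.11). Above 0 were 5 of 5 PRPF probe sets (median 0.15), 7 of 10 SR (0.02), 5 of 8 Sm and snRNP (0.12) and 7 of 10 SF3 (0.05), against 47.1% of all. The 5 PRPF probe sets are of 3 genes, and 3 of them are of Prpf19. In triceps the hnRNP median was -0.04, with 15 of 28 below 0 (53.6%, against 45.6% of all).

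In triceps, Sf3b5, the smallest SF3b subunit, read 7.33, 7.01, 7.65 and 7.48 in NTg and 7.62, 7.80, 7.67 and 7.93 in SOD1-G93A. The groups overlapped by 1 array, NTg 3. The difference was 0.39 (SE 0.18, unadjusted p = 0.0431, limma adjusted p = 0.994), and 0.17 without the 3 arrays of low Ckm. Srsf2, an SR protein mutated in human blood disorders, read 8.89, 7.78, 7.97 and 7.68 in NTg and 8.56, 8.54, 8.58 and 8.51 in SOD1-G93A. Its SOD1-G93A values were nearly level (SD 0.03), and NTg 1 lay above all of them. The difference was 0.47 (SE 0.24), and 0.72 without the arrays of low Ckm, where the adjusted p was 0.997 (0.712 to 1 over its alternatives). Hnrnpll differed by 0.37, and by 0.16 without NTg 2, whose value of 5.96 was the lowest. Prpf8, the large protein at the catalytic core, differed by 0.38, Snrpe, a Sm ring protein, by -0.36, and Hnrnpu (1423051_at), a scaffold protein of nuclear RNA, by -0.21. Within mice 1 and 2 these differences were 0.48, -0.39 and -0.19, and within mice 3 and 4 they were 0.29, -0.32 and -0.22. Without NTg triceps 2, an array of low Ckm, Prpf8 differed by 0.21 and Snrpe by -0.14. Without SOD1-G93A triceps 2, another of them, Snrpe differed by -0.59. None of the 61 had groups that did not overlap (0.949% of all did).

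Over both muscles, besides Hnrnpf, the differences of Snrpb (0.18), Sf3b5 (0.23), Prpf8 (0.27), Hnrnpk (1460547_a_at, -0.33) and Srsf11 (0.21) had the smallest p of their direction or role, with an adjusted p of 0.997 each. Within mice 1 and 2, in that order, they were 0.19, 0.45, 0.27, -0.50 and 0.26. Within mice 3 and 4 they were 0.16, 0.0079, 0.26, -0.17 and 0.16. Among mice averaged over their muscles, 0 of the 61 separated the genotypes (1.12% of all did). The called Hnrnpa2b1 probe sets differed between the genotypes by -0.18 (1433829_a_at) and -0.20 (1434047_x_at). These differences were -0.33 and -0.34 within mice 1 and 2, and -0.02 and -0.05 within mice 3 and 4.

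**Figure D4:**
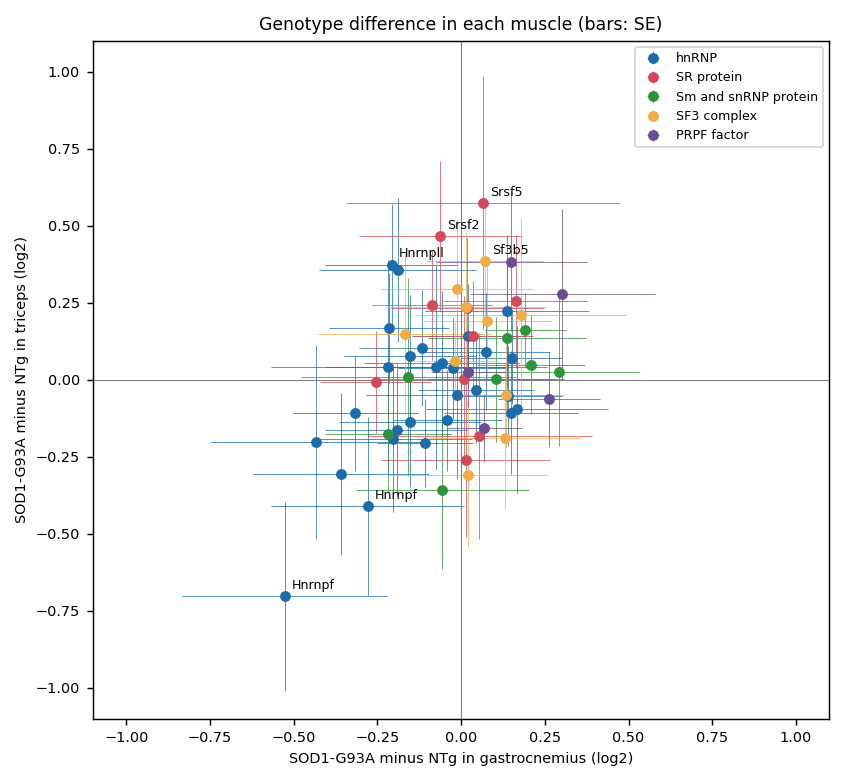
SOD1-G93A minus NTg (log2) in gastrocnemius (horizontal) against triceps (vertical) for the 61 tested probe sets, coloured by role; bars are standard errors of the limma fit, and the named points are those of Hnrnpf, Srsf5, Srsf2, Sf3b5 and Hnrnpll. Hnrnpf (1437099_x_at) lies lowest at -0.53 and -0.70, and Srsf5 lies highest in triceps at 0.57. That Srsf5 difference was 0.79 within mice 1 and 2, which hold the arrays of low Ckm, and 0.36 within mice 3 and 4.

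The effect of genotype was also compared between gastrocnemius and triceps, in a limma fit without the mouse as a block. Hnrnpll differed by -0.58 (SE 0.28, limma adjusted p = 0.999), and its 4 SOD1-G93A mice did not overlap the 4 NTg mice in gastrocnemius minus triceps (exact permutation p = 0.0286). It was the only one of the 61 (1.64%, against 1.85% of all and 1.14% in that direction). Its gastrocnemius read 7.02, 7.04, 7.24 and 7.34 in NTg and 6.98, 6.81, 7.02 and 7.01 in SOD1-G93A, and its triceps 6.80, 5.96, 7.00 and 6.63 in NTg and 6.98, 6.78, 7.14 and 6.98 in SOD1-G93A. Without the 3 arrays of low Ckm the difference was -0.43. Hnrnpab (1453849_s_at), a protein of RNA transport, differed by -0.55, Srsf2 by -0.53, Sf3b5 by -0.31, Prpf6 by 0.33, Sf3b2 (1433461_at) by 0.32, Snrpe by 0.30 and Prpf19 (1449635_at) by 0.23, all with an adjusted p of 0.999. Sf3b5 and Snrpe were at -0.10 and 0.09 without those arrays. Of the other tested probe sets of Hnrnpab and Sf3b2, Hnrnpab 1415914_at and 1455855_x_at and Sf3b2 1456040_at lay on the opposite side of 0. Hnrnpab 1426114_at and Sf3b2 1438637_x_at lay on the same side as the probe set named. Probe sets of a gene often differed in sign: of 14 genes with several tested, all had the same sign in 7 in gastrocnemius, 3 in triceps, 6 over both muscles and 6 for the difference of effects.

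**Figure D5:**
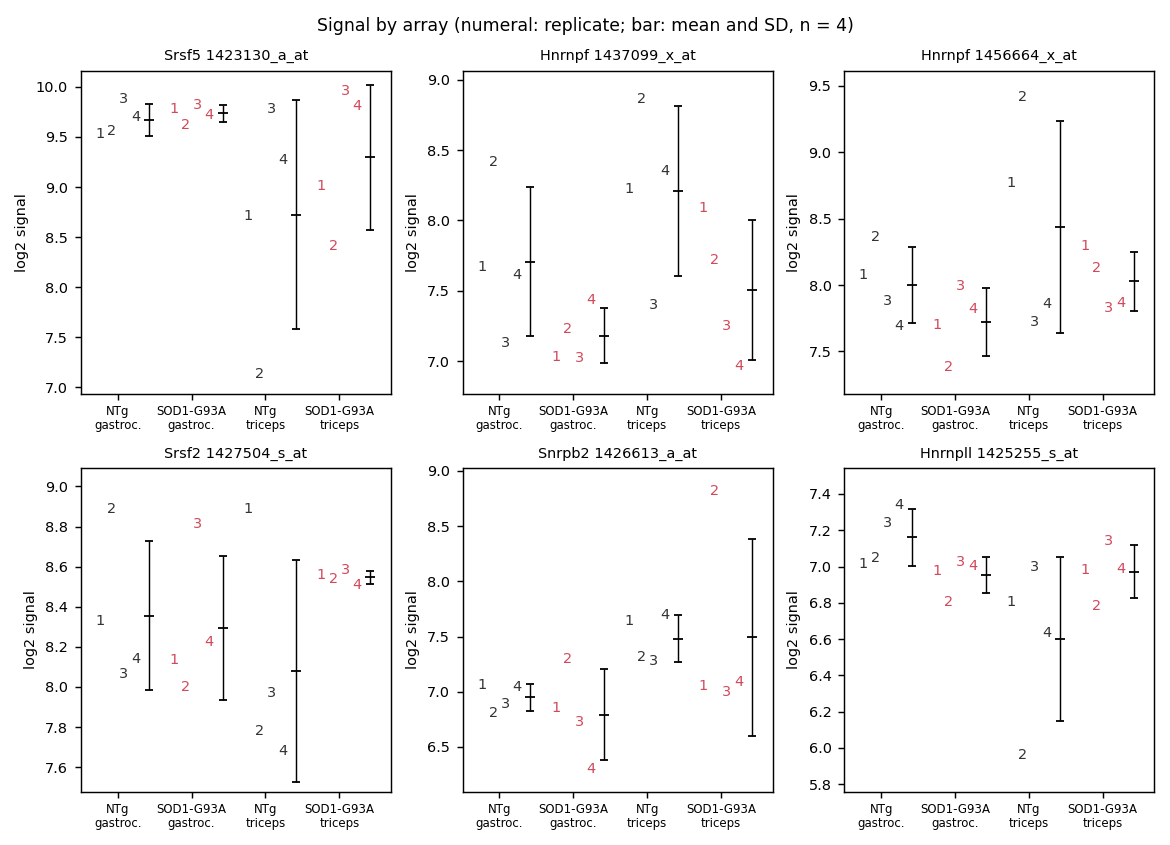
Log2 signal on each array (numeral: replicate; grey NTg, red SOD1-G93A), with the mean and SD of the 4 arrays beside each group, for Srsf5, both tested Hnrnpf probe sets, Srsf2, Snrpb2 and Hnrnpll; each panel has its own vertical scale. NTg triceps 2 is lowest on Srsf5 (7.13) and Hnrnpll (5.96) and highest on both Hnrnpf probe sets, and SOD1-G93A triceps 2 is highest on Snrpb2 (8.82).

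A list of 122 other genes of pre-mRNA splicing, among them U2AF subunits, LSm proteins, RNA helicases and muscle regulators such as Mbnl1 and Rbfox1, had 84 genes in the table and 75 tested probe sets of 55 genes. It had 0 called in every comparison. Between the muscles its median difference was -0.09, with 50 of 75 below 0. The smallest p belonged to the helicase Dhx15 at -0.67 (adjusted p = 0.072), Rbfox1, a splicing regulator of muscle and neurons, at -0.24 (adjusted p = 0.0932) and Celf2, which binds GU-rich RNA, at -0.31 (adjusted p = 0.0969). Between the genotypes, Luc7l2, a U1-associated protein, differed by -0.36 in gastrocnemius, Celf1 by -0.25 and the helicase Ddx5 by -0.34 (adjusted p = 0.999). In triceps U2af1 and U2af2, which recognise the 3′ splice site and its pyrimidine tract, differed by 0.66 and 0.55, and Luc7l3 by -0.57 (adjusted p = 0.994). On the triceps arrays of low Ckm, NTg 1, NTg 2 and SOD1-G93A 2, U2af1 read 7.57, 6.41 and 7.61. U2af2 read 6.51, 6.93 and 7.04 there, and Luc7l3 7.74, 8.72 and 8.30. The other triceps arrays read 6.92 to 7.99 for U2af1, 7.31 to 8.20 for U2af2 and 7.01 to 7.96 for Luc7l3. No difference of this list was taken without the arrays of low Ckm. Over both muscles the differences were 0.23 for Celf2, 0.40 for U2af1 and 0.36 for Srrm2 (adjusted p = 0.997). For the difference of effects, Luc7l2 had -0.72 and -0.76 on 2 probe sets and U2af2 -0.72 (adjusted p = 0.999).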

How the data were processed

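Total RNA had been purified from frozen muscle and biotin-labelled cRNA hybridised to 16 Affymetrix arrays, per the labels' protocols. The authors deposited 1 log2 signal per probe set and array. MAS5 is named in the submitters' processing notes, without a version. The sources used here do not give the scaling, or how the table came to hold 7729 probe sets. Base 2 was read from the range, -0.77 to 14.81. Symbols came from the platform annotation, with 330 probe sets of several symbols and 346 of none left unnamed.

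Values were used as deposited. limma 3.58.1 (R 4.3.3) fitted 4 group means to the 4637 probe sets whose mean exceeded log2 6.75, with an intensity trend. Calls had a Benjamini-Hochberg adjusted p under 0.05 over all of them. Over both muscles the mouse was a random block (correlation 0.18). Both muscles came from the same mice, per the series' design text, so the muscles are paired by mouse number (deviations correlated at 0.14 to 0.39). The main muscle fit leaves this pairing out, and the fit with the mouse as a fixed block is its alternative. The difference of the genotype effects also sets both muscles of a mouse against each other. It was not fitted with the mouse as a block. Scripts were tested on simulated data. The precision is limited by the number of arrays.

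Members, gene lists and the 3 arrays of low Ckm were chosen with earlier results of these data known. Named are called members, else those of smallest p: up to 3 per direction (5 between muscles), and 1 per role. Hnrnpul1, the members at the filter's edge, the brightest and dimmest, and untested probe sets of named genes were named after their values were seen. Alternatives were other filters, quantile normalization, no trend, array weights, blocks, 1 probe set per gene and leaving out arrays.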

Additional observations from a re-analysis of the deposited data

Results flagged for a closer look

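Among the 28 named probe sets, 112 groups of 4 arrays were examined for 1 array far from the other 3, and 4 were found, where chance gives about 1 in 20. On SOD1-G93A triceps 2, an array of low Ckm, Snrpb2 (1426613_a_at) was at 8.82 against 7.00 to 7.09 on the other 3, and Hnrnpab (1453849_s_at) at 8.11 against 7.68 to 7.69. On SOD1-G93A triceps 1, Hnrnpul2 (1434551_at) was at 7.93 against 7.61 to 7.66. On NTg gastrocnemius 2, Hnrnpk (1460547_a_at) was at 9.19 against 8.92 to 8.95.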

How the results depend on the processing

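All counts of called splicing probe sets in the 4 genotype comparisons were 0 under every alternative run, the replicate block included, and the block changed no call there. The main fits did not treat SOD1-G93A and NTg arrays of the same number as pairs. Their deviations correlated at 0.000647 to 0.22 in gastrocnemius and 0.034 to 0.37 in triceps. The replicate block of the genotype comparisons was that number, shared by both genotypes, and not the mouse. Between the muscles, 2 splicing probe sets and 171 of all were called. Without the 3 triceps arrays of low Ckm these were 0 and 108, with the mouse as a replicate block 5 and 318, and with replicate numbers 1 and 2 against 3 and 4 as a block 5 and 436 (Hnrnpk 1460547_a_at in place of Snrpb2). With 1 probe set per gene, the brightest, 0 were called, since that of Hnrnpa2b1 is 1420365_a_at. Leaving out single arrays gave 0 to 4 splicing probe sets and 95 to 273 of all. No filter, a filter at the 60th percentile, quantile normalization, no trend and array weights each called the same Hnrnpa2b1 probe sets. The sign turned for Hnrnpf 1456664_x_at in triceps (0.21) and for Hnrnpc 1460240_a_at between muscles (-0.013), both without the arrays of low Ckm; the cause was not tested. Of the other values of probe sets chosen by the naming rule in a comparison, 975 kept their direction and side of the threshold, 25 lost and 6 gained a call. Not counted there, between the muscles, Hnrnpk 1460547_a_at gained a call with that set block and without NTg triceps 3, and Hnrnpa2b1 1420365_a_at without NTg triceps 4. Probe sets of low signal, 32 of 93, carry no test.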
